A study of Mus musculus with 74 samples.

Results

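Mouse embryonic stem (ES) cells renew themselves in serum medium as long as the cytokine leukaemia inhibitory factor (LIF) is present. The comparison described here set LIF-free cells in which Nanog and Otx2 had been induced against the same cells kept in LIF, and it measured how far the induced cells remained from normal LIF self-renewal. Its members are the RNA-seq libraries of the Nanog/Otx2 SunTag cells labelled -LIF +Dox (4 libraries) and +LIF -Dox (3 libraries) in the table of raw counts. They make up 7 of the 35 libraries in that table and 7 of the 74 samples in the series.

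All cells derived from the E14Tg2a ES line and carried a doxycycline (Dox) inducible SunTag activator, in which a catalytically dead Cas9 bears a peptide array that recruits VP64 activation domains, together with guide RNAs to Nanog and to Otx2. Both groups carried the whole system and differed in the medium, which held 10 ng/mL LIF and no Dox in the first group and 1 µg/mL Dox and no LIF in the second, for 3 days. The cells belonged to 2 clones, C1ON3 and C2ON3. Each was 1 clone picked after the Otx2 guide had been added to a separate Nanog SunTag line. The +LIF -Dox group held 2 libraries of C1ON3 and 1 of C2ON3, and the -LIF +Dox group held 2 of each. Libraries of the same cells without LIF or Dox (-LIF -Dox, 4 libraries) and with both (+LIF +Dox, 4 libraries) served as references. No library of guide-free cells under Dox was analysed here, so Dox itself, Nanog and Otx2 cannot be told apart within these cells.

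LIF binds a receptor made of Lifr and gp130 (Il6st), which activates JAK kinases and the transcription factor STAT3. STAT3 sustains genes of the naive pluripotency network such as Klf4 and Tfcp2l1, and its feedback target Socs3 damps the receptor. Nanog is a homeodomain factor of the same network whose forced expression is known to let ES cells renew without LIF, and Esrrb is a known Nanog target. Otx2 is a homeodomain factor that accompanies the exit from the naive state towards the formative epiblast, which expresses Fgf5, Pou3f1 and the de novo DNA methyltransferases.

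The guides are shown because they define the induction. Their protospacers were located in the mm9 (NCBIM37) genome, and in both sequences below, written on the strand of the gene, capitals mark the protospacer and its adjacent motif (PAM). The Nanog protospacer lay on the plus strand at chr6:122657269-122657288, 229 bases upstream of the most upstream annotated Nanog start, and overlapped no annotated gene. The Otx2 protospacer lay on the minus strand at chr14:49282649-49282668, 111 bases upstream of the nearest annotated Otx2 transcript start and within the longer Otx2 transcripts. No annotated exon overlapped either of the windows of 143 bases.
Nanog: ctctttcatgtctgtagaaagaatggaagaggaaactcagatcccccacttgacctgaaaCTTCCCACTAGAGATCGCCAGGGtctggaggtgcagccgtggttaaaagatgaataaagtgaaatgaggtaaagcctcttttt
Otx2: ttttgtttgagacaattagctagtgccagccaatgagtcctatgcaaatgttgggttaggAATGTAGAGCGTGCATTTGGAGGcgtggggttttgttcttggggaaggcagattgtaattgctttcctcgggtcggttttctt

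The libraries held 6107512 to 51380795 estimated counts. The +LIF -Dox library of C2ON3 was the shallowest and had 18230 genes with a count, against 20536 to 21580 in the others, and it stood apart from the other +LIF -Dox libraries on the second principal component (-66.0 against -29.0 and -37.6). All 8 genes of an ES cell identity list, among them Pou5f1, Sox2, Utf1 and Dppa5a, were expressed in each library, the lowest value being 2612 normalised counts for Dppa4. Mitochondrial transcripts took 4.82 to 5.75% of counts in +LIF -Dox and 4.03 to 4.93% in -LIF +Dox. Their part in the results was not tested. Expression is given below as normalised counts, the estimated counts divided by a size factor per library. Values are listed in the order C1ON3 replicate 1, C1ON3 replicate 2, C2ON3 replicate 1 and, where there are 4, C2ON3 replicate 2. Since gene length was not corrected for, levels are compared between libraries and not between genes. All log2 fold changes carry their SE, and p-values are those of the quasi-likelihood test of edgeR, adjusted after Benjamini and Hochberg over all genes tested.

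Both targets were expressed above their level in LIF cells. Nanog stood at 20533, 18320.4 and 19586 normalised counts in the +LIF -Dox libraries and at 48470.5, 42572, 35379 and 31697 in the -LIF +Dox libraries. Every induced library lay above every LIF library, while the -LIF -Dox libraries stood at 6867, 6327, 1974 and 2533, below both. The gap, the log2 fold change of -LIF +Dox over +LIF -Dox, was 1.02 ± 0.33 for Nanog (adjusted p = 0.021). The call rested on individual libraries, as the adjusted p was 0.069, 0.051 and 0.053 without the +LIF -Dox library of C1ON3 replicate 2, the +LIF -Dox library of C2ON3 or the -LIF +Dox library of C1ON3 replicate 1, with log2 fold changes of 0.98, 1.02 and 0.91. Otx2 stood at 1062, 1059 and 736 in +LIF -Dox and at 7347, 7311, 6827 and 7206 in -LIF +Dox. The groups did not overlap and the gap was 2.89 ± 0.16 (adjusted p = 1.4e-08). Otx2 was already at 3372, 4389, 3388 and 5148 in -LIF -Dox, so that LIF withdrawal without Dox carried 2.04 ± 0.16 of log2 change and Dox without LIF a further 0.85 ± 0.13 (adjusted p = 5.7e-04).

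**Figure D1:**
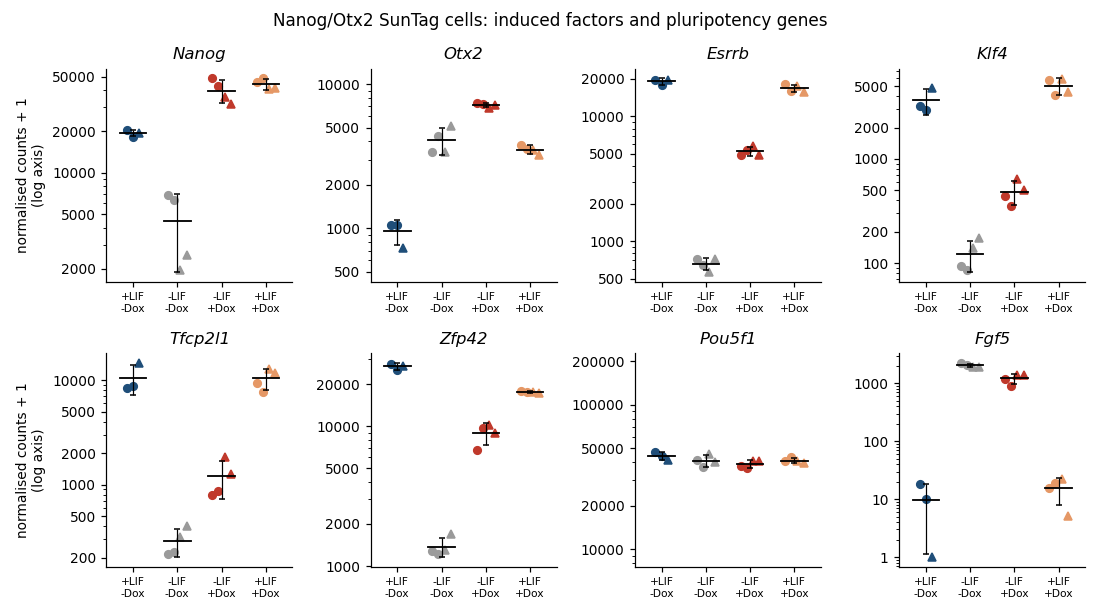
Normalised counts plus 1 on a log axis for 8 genes in the 4 conditions of the Nanog/Otx2 SunTag cells (circles C1ON3, triangles C2ON3, bars mean ± SD). Esrrb, Klf4, Tfcp2l1 and Zfp42 in the -LIF +Dox libraries lie between the -LIF -Dox and the +LIF -Dox libraries, Pou5f1 stays within 36346 to 47215 in all 4 conditions, and Fgf5 lies at or above 915 in every LIF-free library and at or below 21.5 in every library with LIF.

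The LIF-free cells with Nanog and Otx2 differed widely from LIF cells. Of 15609 genes tested, 7072 (45.3%) passed an adjusted p of 0.05, with 3678 higher (23.6%) and 3394 lower (21.7%) in -LIF +Dox. At least 2-fold changes were found for 2857 genes (18.3%), of which 1893 were higher (12.1%) and 964 lower (6.18%). The genes called higher had a median log2 fold change of 1.03 and those called lower of -0.61. With the replicate block, 9298 genes were called. In bulk samples, fewer cells of a type and less RNA per cell cannot be told apart. Within C1ON3 alone 7673 genes were called and within C2ON3 alone, with 1 LIF library, 4549.

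For reference, LIF withdrawal without Dox changed 7768 genes (49.8%), with 1858 at least 2-fold higher (11.9%) and 1721 at least 2-fold lower (11%). This comparison shares the +LIF -Dox libraries with the gap, so the values of both are only set side by side. The lowest 5% of log2 fold changes lay below -1.87 for withdrawal and -1.25 for the gap, whereas the highest 5% lay above 1.97 and 1.93. Over all genes tested, the root mean square log2 distance of the group means from +LIF -Dox was 1.12 for -LIF -Dox, 0.963 for -LIF +Dox and 0.667 for +LIF +Dox. Cells that kept LIF and received Dox thus also lay at a distance from the reference. These distances include the spread between libraries and the unequal share of the clones, whose part was not tested. Dox without LIF, which tests the gap against the withdrawal directly, changed 2702 genes (17.3%), of which 1742 rose (11.2%) and 960 fell (6.15%). This count was 5215 with a replicate block and 1757 without the -LIF +Dox library of C1ON3 replicate 2.

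A list of LIF-responsive genes was taken from other libraries, those of the Nanog SunTag cells, which carry no Otx2 guide. In them, 2154 genes (13.8%) fell and 1963 (12.6%) rose at least 2-fold on LIF withdrawal without Dox, and 2033 and 1893 of these were tested in the Nanog/Otx2 cells. Among the genes that fell, 1142 (56.2%) were still lower in -LIF +Dox than in LIF cells, 856 (42.1%) were not called and 35 (1.72%) were called higher, against 21.7% lower and 23.6% higher over all genes. Their median log2 fold change was -1.35 on withdrawal and -0.75 in the gap. Dox without LIF raised 772 of them (38%), against 11.2% of all genes. Among the genes that rose, 1472 (77.8%) were still higher in -LIF +Dox, 407 (21.5%) were not called and 14 (0.74%) were called lower. Their median was 1.47 on withdrawal and 1.24 in the gap, and Dox without LIF lowered 356 (18.8%), against 6.15% of all genes. The medians of the Dox effect were 0.57 over the first list and -0.21 over the second. The names of the Nanog SunTag libraries carry different letters with and without LIF. The meaning of these letters is not stated, so they cannot be told apart from LIF in the choice of the lists.

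**Figure D2:**
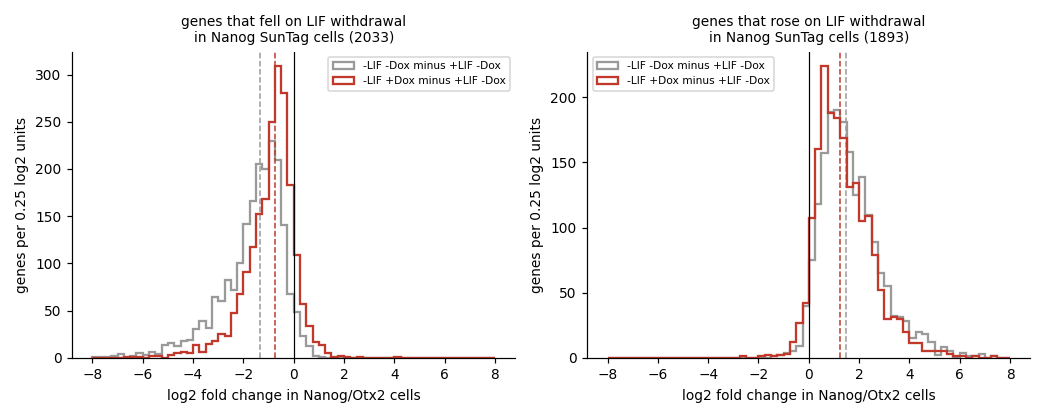
Number of genes per 0.25 log2 units against the log2 fold change in Nanog/Otx2 cells, for the 2033 genes that fell (left) and the 1893 that rose (right) on LIF withdrawal in Nanog SunTag cells. Red, -LIF +Dox minus +LIF -Dox; grey, -LIF -Dox minus +LIF -Dox; dashed lines are the medians (-0.75 and -1.35 on the left, 1.24 and 1.47 on the right), and the red curve is shifted towards 0 more on the left than on the right.

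Naive factors lay between their levels with and without LIF. The list of naive pluripotency factors had 23 rows tested (22 genes, as Tdh has 2 identifiers). Of these, 22 were lower in -LIF +Dox than in LIF cells (95.7%, against 21.7% of all genes) and none was higher. Their log2 fold change had a median of -1.92 in the gap and -3.83 on withdrawal without Dox, compared with -0.01 and -0.01 over all genes tested. Dox without LIF raised 17 of the 23 (73.9%, against 11.2% of all genes). The summed level of the list was 178136 to 207116 normalised counts in +LIF -Dox, 64668 to 78106 in -LIF +Dox and 26449 to 41397 in -LIF -Dox.

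Esrrb, an orphan nuclear receptor at the centre of the network, stood at 19756, 17725 and 19744 normalised counts in +LIF -Dox, at 4925, 5388, 5808 and 4914 in -LIF +Dox and at 712, 638, 562 and 720.1 in -LIF -Dox. The 3 groups did not overlap. The mean was thus 27.6% of the LIF level with Dox and 3.45% without, with a gap of -1.85 ± 0.09 (adjusted p = 7.0e-09). Zfp42 (Rex1), a zinc finger protein used as a naive marker, stood at 27969, 25132 and 27136 in the LIF libraries and at 6711, 9740.2, 10236 and 9005 in the induced libraries, again without overlap. It reached 33.4% of the LIF level with Dox and 5.13% without, and its gap was -1.58 ± 0.13 (adjusted p = 3.9e-07).

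The Krüppel-like factors differed in what remained. Klf4, a direct STAT3 target, stood at 3252, 2944 and 4847 in +LIF -Dox and 439.8, 350.2, 641 and 506 in -LIF +Dox, and no induced library came near a LIF library. Its gap was -2.91 ± 0.25 (adjusted p = 6.2e-07), or 13.2% of the LIF level. Klf2 was at 14.8% of the LIF level, with 3798, 4131 and 3694 normalised counts in LIF, 676, 655, 501 and 466 in the induced libraries and a gap of -2.75 ± 0.20 (adjusted p = 1.2e-07). Klf5 came closest of the 3, with 2672, 2770.3 and 3199 in +LIF -Dox and 1409.6, 2115, 2040.0 and 2156 in -LIF +Dox. Its groups did not overlap either, and its gap of -0.57 ± 0.15 (adjusted p = 0.0074) corresponded to 67.0% of the LIF level against 9.95% without Dox.

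Tfcp2l1, a transcription factor downstream of STAT3, remained at 11.3% of its LIF level, with 8379.9, 8858 and 14554 against 800.3, 876, 1846 and 1269.8 normalised counts and a gap of -3.14 ± 0.31 (adjusted p = 2.1e-06). The T-box factor Tbx3 reached 35.7% (3287, 2707 and 4083 against 748, 1096, 1710.2 and 1245) and a gap of -1.47 ± 0.29 (adjusted p = 8.2e-04). Neither gene had overlapping groups. Prdm14, a repressor of FGF receptor signalling and DNA methylation genes, reached 40.9%, the nuclear receptor Nr0b1 28.3% and the 5-methylcytosine dioxygenase Tet2 37.4%, compared with 5.02%, 6.32% and 7.20% without Dox. Their gaps were -1.29 ± 0.14, -1.83 ± 0.27 and -1.41 ± 0.16 (adjusted p = 4.1e-06, 9.7e-05 and 9.7e-06).

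Among the other members, the junction protein gene Jam2 had the lowest gap of the list (-3.48 ± 0.23, adjusted p = 4.9e-08), followed by Tfcp2l1 and by Nr5a2, a nuclear receptor that binds the Pou5f1 promoter (-2.95 ± 0.53, adjusted p = 3.9e-04). Nr5a2 stood at 1446, 1583 and 2305 in +LIF -Dox, at 81.1, 131, 376 and 318 in -LIF +Dox and at 67.9, 124, 268 and 357 in -LIF -Dox. The LIF-free groups overlapped each other well below the LIF libraries. Fgf4, the FGF ligand that ES cells secrete, was the member not called, at 5589, 5061 and 4532 in +LIF -Dox and 6165, 7591, 5846 and 7114 in -LIF +Dox. Every induced library was above every LIF library, and the gap was 0.40 ± 0.17 (adjusted p = 0.073), or 0.36 with the replicate block (adjusted p = 0.041).

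**Figure D3:**
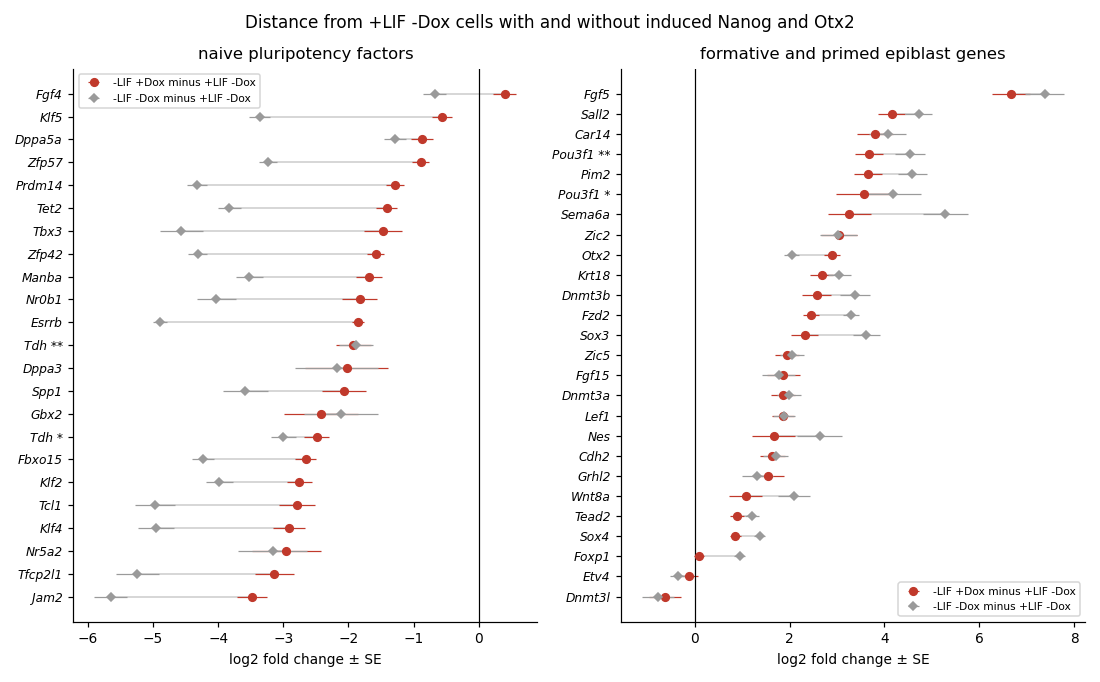
Log2 fold change ± SE from +LIF -Dox for the naive pluripotency factors (left) and the formative and primed epiblast genes (right), with Nanog and Otx2 induced (red) or without Dox (grey); asterisks tell apart the 2 identifiers of Tdh and of Pou3f1. On the left the red points lie nearer to 0 than the grey for most genes and Fgf4 alone lies above it, and on the right 23 of 26 red points are called above 0.

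The general pluripotency factors showed no common direction. Of 18 tested, 5 were higher and 5 lower (27.8% each, against 23.6% and 21.7% of all genes), and the median gap was -0.03. Only 6 were called without the +LIF -Dox library of C1ON3 replicate 1. Pou5f1 (Oct4) stood at 47215, 44028 and 41714 in +LIF -Dox and 37935, 36346, 41073 and 41009 in -LIF +Dox, with a gap of -0.18 ± 0.08 (adjusted p = 0.084). The groups were adjacent and did not overlap, at 88.2% of the LIF level. The gap passed the threshold with the block on column numbers (-0.20, adjusted p = 0.028), with clone as a covariate (-0.19, adjusted p = 0.046) and within C1ON3 alone (-0.27, adjusted p = 0.028), and was -0.0058 within C2ON3 alone (adjusted p = 0.98). Sox2 stood at 12106, 9991 and 11957 in +LIF -Dox and 8272, 7963, 11304 and 8852 in -LIF +Dox, which overlapped, with a gap of -0.31 ± 0.18 (adjusted p = 0.18) that passed the threshold with the replicate block (-0.35, adjusted p = 0.043). Tdgf1, a Nodal co-receptor, was the lowest of the list, at 22809, 23409.9 and 22021 against 7179, 9165, 7915 and 10218 without overlap and a gap of -1.40 ± 0.13 (adjusted p = 1.3e-06). Lin28b, a let-7 inhibitor, was the highest, at 932, 1159.6 and 972 against 2221, 2097, 2163 and 2054 and a gap of 1.06 ± 0.08 (adjusted p = 1.8e-07).

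The LIF targets Socs3 and Bcl3 remained far below their level in LIF. In the list of LIF receptor, JAK-STAT3 and feedback genes, 8 of 22 tested were lower (36.4%, against 21.7% of all genes) and 2 higher (9.09%, against 23.6%), with a median gap of -0.22 and a median of -0.61 on withdrawal. Dox without LIF raised 7 of them (31.8%, against 11.2% of all genes) and lowered none. The 2 higher in the gap were the phosphatase gene Ptpn11 (0.42 ± 0.11, adjusted p = 0.0058, or 0.13 and 0.33 with offsets for length and GC content) and the feedback inhibitor gene Socs1 (0.94 ± 0.24, adjusted p = 0.0060, or 0.30 and 0.68 within C2ON3 alone). The receptor kinase gene Jak1 was not called (0.01), nor were Mycn (-0.26) and Myc (-0.19), although Myc was called with the replicate block (-0.45, adjusted p = 0.033). Socs3, the STAT3 target that inhibits the receptor, stood at 2152, 3734 and 4388 in +LIF -Dox, 27, 45.5, 49.5 and 59.2 in -LIF +Dox and 84.3, 71.3, 76.6 and 51.2 in -LIF -Dox. Both LIF-free groups lay far below the LIF libraries and overlapped each other. The gap of -6.21 ± 0.34 (adjusted p = 1.2e-08) was the largest decrease among named genes, 74.1-fold, and Dox had no called effect (-0.62 ± 0.33, adjusted p = 0.22), although with the block on column numbers Socs3 was lower with Dox than without (-0.80, adjusted p = 0.044). Bcl3, a nuclear IκB family protein, was also far below its LIF level, with 559, 639.9 and 745 against 25.2, 26.9, 25.4 and 24.3. Its gap was -4.66 ± 0.23 (adjusted p = 7.0e-09) and its Dox effect 0.27 ± 0.24 (adjusted p = 0.48).

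The means of Stat3, Lifr and Il6st in -LIF +Dox lay between those of the -LIF -Dox and the +LIF -Dox libraries. Stat3 stood at 2623, 2981 and 3328 in +LIF -Dox and 759, 703, 801 and 749.7 in -LIF +Dox, without overlap, and at 489, 431, 523 and 494 in -LIF -Dox. Its gap was -1.98 ± 0.09 (adjusted p = 2.8e-09) and its Dox effect 0.67 ± 0.08 (adjusted p = 5.5e-05). Lifr stood at 2044, 2800.3 and 2666 in +LIF -Dox and 936, 1288, 1184 and 1176 in -LIF +Dox, with a gap of -1.12 ± 0.18 (adjusted p = 2.0e-04) and a Dox effect of 1.71 ± 0.18 (adjusted p = 1.9e-05). Il6st had a gap of -0.51 ± 0.12 (adjusted p = 0.0028) and a Dox effect of 0.76 ± 0.11 (adjusted p = 2.9e-04). Junb, Pim3 and Pim1, an AP-1 subunit and 2 kinases that LIF induces, were lower, with gaps of -2.10 ± 0.37, -1.57 ± 0.10 and -1.0 ± 0.12 (adjusted p = 3.5e-04, 4.1e-08 and 1.9e-05).

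The Socs3 promoter is shown because Socs3 had the largest decrease among the genes named. The 250 bases before its start (RefSeq, GRCm38.p6, chr11:117969367-117969616, minus strand) hold the letters TTCTTAGAA, in capitals, 154 bases before the start, a match to the STAT motif TTCNNNGAA, which reads the same on both strands.
Socs3: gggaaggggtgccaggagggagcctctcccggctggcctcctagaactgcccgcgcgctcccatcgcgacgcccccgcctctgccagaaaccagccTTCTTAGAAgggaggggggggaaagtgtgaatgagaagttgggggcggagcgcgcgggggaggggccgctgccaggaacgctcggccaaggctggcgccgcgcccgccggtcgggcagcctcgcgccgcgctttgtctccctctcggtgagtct
In the RefSeq promoter table, 2 of the 25 promoters matched to the LIF pathway list (20 genes) held the motif, those of Cish and Socs3, as did 1 of 20 promoters of the naive list (5%, Esrrb) and 2 of 28 of the formative list (7.14%, Dnmt3l and Otx2), against 8.3% of all 32851 promoters of the same length. A match describes the letters and not a bound site.

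**Figure D4:**
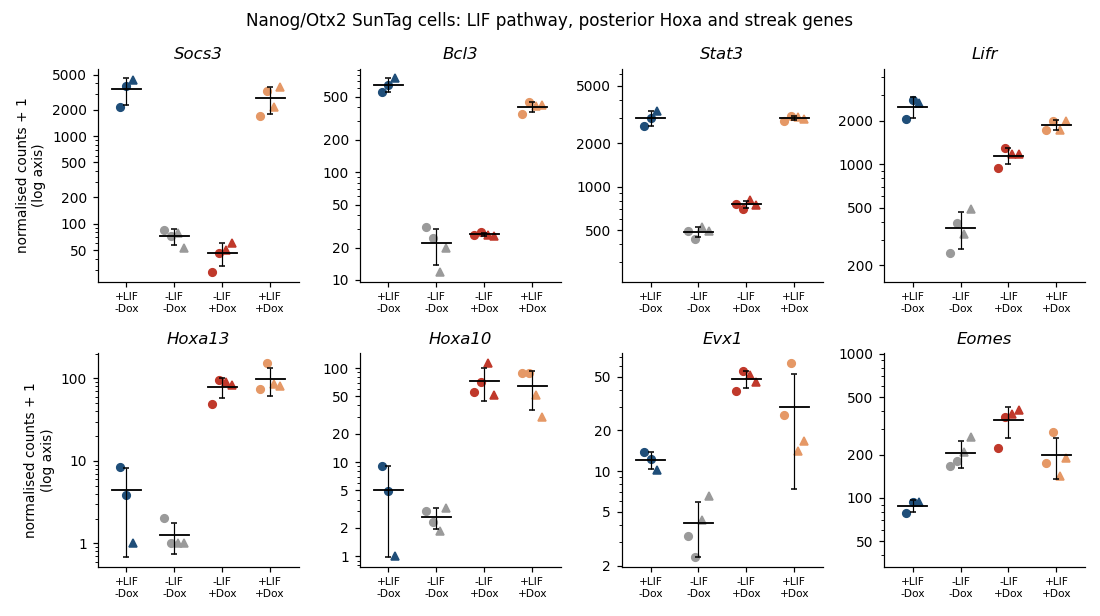
Normalised counts plus 1 on a log axis for 4 LIF pathway genes (top) and 4 posterior Hoxa and primitive streak genes (bottom) in the 4 conditions (circles C1ON3, triangles C2ON3, bars mean ± SD). Socs3 and Bcl3 are low in both LIF-free groups, and Hoxa13 and Hoxa10 are high in both groups with Dox.

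Formative genes remained above their LIF level. The formative and primed epiblast genes had 26 rows tested (25 genes). Of these, 23 were higher in -LIF +Dox than in LIF cells (88.5%, against 23.6% of all genes) and none was lower. The median gap was 2.13 and the median withdrawal effect 2.36. Dox without LIF lowered 9 of the 26 and raised 1 (3.85%), Otx2 itself, against 6.15% lowered and 11.2% raised of all genes. The summed level was 29678 to 42993 normalised counts in +LIF -Dox, 119037 to 133813 in -LIF +Dox and 176098 to 196785 in -LIF -Dox.

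Fgf5, the ligand that marks the formative epiblast, stood at 17.4, 9.07 and 0 in +LIF -Dox, at 1172, 915, 1371 and 1405 in -LIF +Dox and at 2238, 2068, 1944 and 1929 in -LIF -Dox. The induced libraries lay far above the LIF libraries and below the uninduced ones, with a gap of 6.66 ± 0.41 (adjusted p = 3.0e-08) and a Dox effect of -0.71 ± 0.24 (adjusted p = 0.052), which was called with the replicate block (-0.72, adjusted p = 0.0084). The de novo methyltransferase Dnmt3b stood at 10708, 9309.6 and 3639 in +LIF -Dox and 49578, 50608, 41328 and 46965 in -LIF +Dox, with a gap of 2.57 ± 0.31 (adjusted p = 1.4e-05). Pou3f1 (Oct6), a POU factor of the epiblast and neural lineage, had 300.4, 248 and 181 against 3157, 3072, 2704 and 3967 and a gap of 3.67 ± 0.30 (adjusted p = 4.0e-07). None of these 3 genes had overlapping groups.

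Sox3 and Sema6a were the members that Dox lowered most. Sox3, a SoxB1 factor, stood at 38.9, 29.5 and 41.7 in +LIF -Dox, 171, 120.2, 199 and 212 in -LIF +Dox and 379, 458, 468 and 481 in -LIF -Dox, with a gap of 2.32 ± 0.28 (adjusted p = 1.6e-05) and a Dox effect of -1.30 ± 0.22 (adjusted p = 9.9e-04). Sema6a, a semaphorin, stood at 77.8, 41.4 and 46.3 in +LIF -Dox, 319, 289.5, 813 and 759.5 in -LIF +Dox and 3137, 2375, 1973 and 1662 in -LIF -Dox, with a gap of 3.26 ± 0.45 (adjusted p = 5.0e-05) and a Dox effect of -2.03 ± 0.34 (adjusted p = 9.9e-04). For both genes the induced libraries lay between the other groups. The remaining members with the smallest adjusted p were Sall2, Fzd2 and Pim2, with gaps of 4.15 ± 0.28, 2.45 ± 0.17 and 3.65 ± 0.30. The methyltransferase cofactor Dnmt3l was among the 3 not called (-0.63 ± 0.33, adjusted p = 0.14) and was called lower with the replicate block (-0.84, adjusted p = 0.021).

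Early mesendoderm genes were mostly low but several were above LIF cells. Of 13 primitive streak genes tested, 7 were higher and 2 lower (53.8% and 15.4%, against 23.6% and 21.7% of all genes). Their median was 0.83 in the gap and 0.28 on withdrawal. Of the 22 listed, 9, Brachyury (T) among them, did not pass the filter on low counts. Evx1 could pass it only through a group with Dox, where it was high. Eomes, a T-box factor of the streak, stood at 77.1, 92.9 and 92.6 in +LIF -Dox, at 165, 178, 208 and 263 in -LIF -Dox and at 223, 364, 382 and 409 in -LIF +Dox. The induced libraries were above every LIF library, and the gap was 1.99 ± 0.27 (adjusted p = 4.2e-05). Evx1, a homeobox gene next to the Hoxa cluster, stood at 12.7, 11.3 and 9.26 in +LIF -Dox, at 2.34, 1.32, 3.33 and 5.56 in -LIF -Dox and at 38.2, 53.7, 50.7 and 44.7 in -LIF +Dox, with a gap of 2.00 ± 0.48 (adjusted p = 0.0036). It was lowest without LIF and Dox and highest in the induced cells, and Dox without LIF raised it by 3.94 ± 0.49 (adjusted p = 8.0e-05). The signalling ligand gene Wnt3 had a gap of 2.58 ± 0.43 (adjusted p = 2.2e-04) at a mean of 25.2 ± 7.30 normalised counts in -LIF +Dox (SD, n = 4), whereas Cdx1 and Kdr were lower (-2.78 ± 0.46 and -1.94 ± 0.39, adjusted p = 2.2e-04 and 9.5e-04).

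Hoxa13 and Hoxa10 were higher with Dox than in either group without it. Of the 39 Hox genes, 13 passed the filter. Of these, 5 were higher and 1 lower in the gap (38.5% and 7.69%, against 23.6% and 21.7% of all genes). Hoxa13 and Hoxa10 could pass only through a group with Dox, where they were high, so the filter partly sets the count of higher genes. Hoxa13 stood at 7.38, 2.83 and 0 in +LIF -Dox, 47.5, 94.6, 88.8 and 82.9 in -LIF +Dox, 1.00, 0, 0 and 0 in -LIF -Dox and 74.1, 152, 84.2 and 79.9 in +LIF +Dox. It was thus high in every library with Dox and at 3 counts or fewer in every -LIF -Dox library, and its gap was 4.09 ± 0.52 (adjusted p = 2.5e-05). Hoxa10 stood at 8.05, 3.97 and 0 in +LIF -Dox and 54.0, 70.0, 112 and 50.6 in -LIF +Dox, with a gap of 3.72 ± 0.54 (adjusted p = 7.0e-05) and a Dox effect of 5.36 ± 0.53 (adjusted p = 1.3e-05). Hoxc13 was the gene called lower (-1.63 ± 0.33, adjusted p = 9.6e-04). Hoxb1 was listed at 0.671, 1.13 and 0 in +LIF -Dox and 19.6, 4.67, 43.1 and 24.3 in -LIF +Dox, and no fold is given since no LIF library held more than 2 counts.

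Among markers of other lineages, neuroectoderm and trophoblast genes went both ways, while few or no extraembryonic endoderm and germline genes were higher. Of 12 neuroectoderm genes tested, 3 were higher and 4 lower (25% and 33.3%, against 23.6% and 21.7% of all genes). Sox11, a SoxC factor of neural progenitors, stood at 141, 137 and 153 against 450.0, 435, 477 and 636 without overlap (gap 1.82 ± 0.23, adjusted p = 1.9e-05), while Sox21 stood at 144, 67.4 and 69.4 against 9.32, 17.5, 10.1 and 9.21 and was lower (-3.06 ± 0.40, adjusted p = 3.2e-05). Of 19 extraembryonic endoderm genes, 1 was higher and 5 were lower (5.26% and 26.3%; 11 called with the replicate block), among them Hnf4a and the laminin gene Lama1 (-2.44 ± 0.30 and -2.25 ± 0.32, adjusted p = 2.0e-05 and 6.5e-05). The defining factor Gata6 was not called (-1.36 ± 0.56, adjusted p = 0.061) but was with the replicate block (-1.55, adjusted p = 9.6e-04) or without the +LIF -Dox library of C1ON3 replicate 1 (-1.78, adjusted p = 0.024). Of 12 trophoblast genes, the keratin genes Krt8 and Krt7 were higher (1.74 ± 0.21 and 2.35 ± 0.42, adjusted p = 1.4e-05 and 4.0e-04) and the transcription factors Tfap2c and Tead4 lower (-2.34 ± 0.27 and -1.91 ± 0.20, adjusted p = 1.1e-05 and 4.3e-06), and Cdx2 and Elf5 did not pass the filter. Of 15 germline genes, 4 were lower and none higher (26.7% lower; 7 called with the replicate block), including the primordial germ cell factor Prdm1 (-1.37 ± 0.31, adjusted p = 0.0024) and the meiotic gene Hormad1 (-1.92 ± 0.28, adjusted p = 8.5e-05).

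Fibroblast markers were low in all libraries and higher in the induced group. Of 10 listed, 5 passed the filter and all 5 were called higher (100%, against 23.6% of all genes). The summed level over the list was 289 to 481 normalised counts in +LIF -Dox, 688 to 886 in -LIF +Dox and 376 to 646 in -LIF -Dox. Dcn was among the 5 although no +LIF -Dox library held more than 3 of its counts. It could not pass the filter through that group, so the filter partly sets the count of higher genes. Col3a1, Prrx1, Postn and Lum held at most 3 counts in each of the 7 libraries. Col1a1, a collagen chain, stood at 14.8, 21.0 and 32.4 against 84.8, 78.2, 93.9 and 63.8 (gap 1.98 ± 0.38, adjusted p = 7.3e-04). Within C2ON3 alone none of the 5 was called. Their part in the other results was not tested.

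FGF and TGFβ signalling genes changed member by member. Of 22 rows tested for FGF ligands, receptors and ERK feedback genes, 9 were higher and 4 lower (40.9% and 18.2%, against 23.6% and 21.7% of all genes). The feedback inhibitor Spry2 was lower (-1.73 ± 0.17, adjusted p = 3.0e-06), while the feedback genes Spry1, Dusp4 and Il17rd were higher (1.40 ± 0.25, 1.57 ± 0.19 and 1.11 ± 0.20, adjusted p = 3.8e-04, 1.4e-05 and 3.8e-04). Of 25 Nodal, activin and BMP genes, 4 were lower (16%), all of them ligands or ligand subunits, and 9 higher (36%). Nodal stood at 1493, 1659 and 1764 against 889, 786, 696 and 869 and Bmp4 at 425, 671 and 708 against 168, 191, 162 and 168, both without overlap, with gaps of -1.01 ± 0.14 and -1.79 ± 0.18 (adjusted p = 4.8e-05 and 2.4e-06). The activin subunit gene Inhbb had a gap of -3.85 ± 0.75 (adjusted p = 7.3e-04). The 9 genes called higher included the receptors Bmpr1a and Acvr2b, the mediator Smad4 and the target Id3 (0.45 ± 0.07, 0.75 ± 0.18, 0.49 ± 0.07 and 1.46 ± 0.35). Id1, another BMP target, stood at 363, 715 and 787 against 461, 506, 854 and 970.0, which overlapped, and its gap of 0.20 ± 0.38 (adjusted p = 0.69) changed sign under other settings.

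Claudin genes were higher and some mesenchymal genes lower. Of 18 adhesion genes tested, 9 were higher and 4 lower (50% and 22.2%, against 23.6% and 21.7% of all genes), with a median gap of 0.53. The tight junction genes Cldn6, Cldn7, Cldn3 and Ocln had gaps of 2.48 ± 0.45, 2.91 ± 0.56, 2.69 ± 0.74 and 1.50 ± 0.25, E-cadherin (Cdh1) of 0.62 ± 0.12 and N-cadherin (Cdh2) of 1.64 ± 0.26 (adjusted p = 4.3e-04, 7.3e-04, 0.0080, 2.6e-04, 8.1e-04 and 1.7e-04). Cldn6 stood at 1177, 714 and 301 against 6267, 4613, 3056 and 3153, without overlap although each group ranged widely. Genes called lower included fibronectin (Fn1), vimentin (Vim) and the transcriptional repressor Zeb1, with gaps of -1.22 ± 0.16, -1.21 ± 0.21 and -1.93 ± 0.31 (adjusted p = 3.5e-05, 3.2e-04 and 1.7e-04).

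Chromatin regulators were called at a rate near that of all genes, at 50% of PRC2 and 54.5% of DNA methylation genes against 45.3%. PRC2, the complex that methylates H3K27, had 6 of 12 tested genes lower (50%, against 21.7% of all genes) and none higher. Its core subunit Eed stood at 7853, 8999.5 and 8268 in +LIF -Dox, 2584, 3095, 3361 and 3537 in -LIF +Dox and 2710.2, 2968, 3468 and 3596 in -LIF -Dox, so the LIF-free groups overlapped each other well below the LIF libraries, and the gap was -1.41 ± 0.12 (adjusted p = 6.2e-07). The catalytic subunit Ezh2 had a gap of -0.57 ± 0.06 (adjusted p = 6.0e-06), and Suz12 of -0.01 ± 0.10 (adjusted p = 0.94). Phf19, an accessory subunit, stood at 406, 301 and 162 against 485, 460.0, 299 and 182, which overlapped, with a gap of 0.25 ± 0.43 (adjusted p = 0.66) that was called with the replicate block (0.49, adjusted p = 0.022). Of 11 genes of DNA methylation, 4 were higher and 2 lower (36.4% and 18.2%, against 23.6% and 21.7% of all genes). The writers Dnmt3a and Dnmt3b were higher (1.86 ± 0.25 and 2.57 ± 0.31). The erasers diverged, with Tet1 at -1.41 ± 0.13, Tet2 at -1.41 ± 0.16 and Tet3 at 1.32 ± 0.17 (adjusted p = 1.3e-06, 9.7e-06 and 2.0e-05), while Dnmt1 was not called (0.11).

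Respiratory chain genes were lower by small amounts. Of 24 subunits, 16 were lower in -LIF +Dox (66.7%, against 21.7% of all genes) and none higher, with a median gap of -0.35, a median of -0.32 on withdrawal and of -0.03 for Dox without LIF. Cox4i1, a subunit of complex IV, stood at 12143, 11150.4 and 14596 against 8388, 8235, 8479.7 and 9434, without overlap (gap -0.54 ± 0.08, adjusted p = 1.4e-04). These are short transcripts, with a median length of 1451.5 bases against 2967 over the genes tested with an annotated length, and the gap had a Spearman correlation of 0.23 with transcript length over 14227 genes. With offsets that remove each library's trend over length and GC content, 9 of the 24 were called in either direction, against 16 in the main test. The share of all genes called with the offsets is not given here, so no excess over it is claimed. Of 20 glycolysis genes, 6 were higher (30%) and 4 lower (20%), close to the 23.6% and 21.7% of all genes. The muscle phosphofructokinase gene Pfkm and the glucose transporter gene Slc2a1 were higher (1.15 ± 0.14 and 0.87 ± 0.14, adjusted p = 2.0e-05 and 1.9e-04), hexokinase 2 (Hk2) and Ldhb were lower (-0.80 ± 0.09 and -1.21 ± 0.22, adjusted p = 1.1e-05 and 3.9e-04), and Gapdh and Ldha were not called (0.06 and 0.20). Ldha was called with the replicate block (0.22, adjusted p = 0.010).

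**Figure D5:**
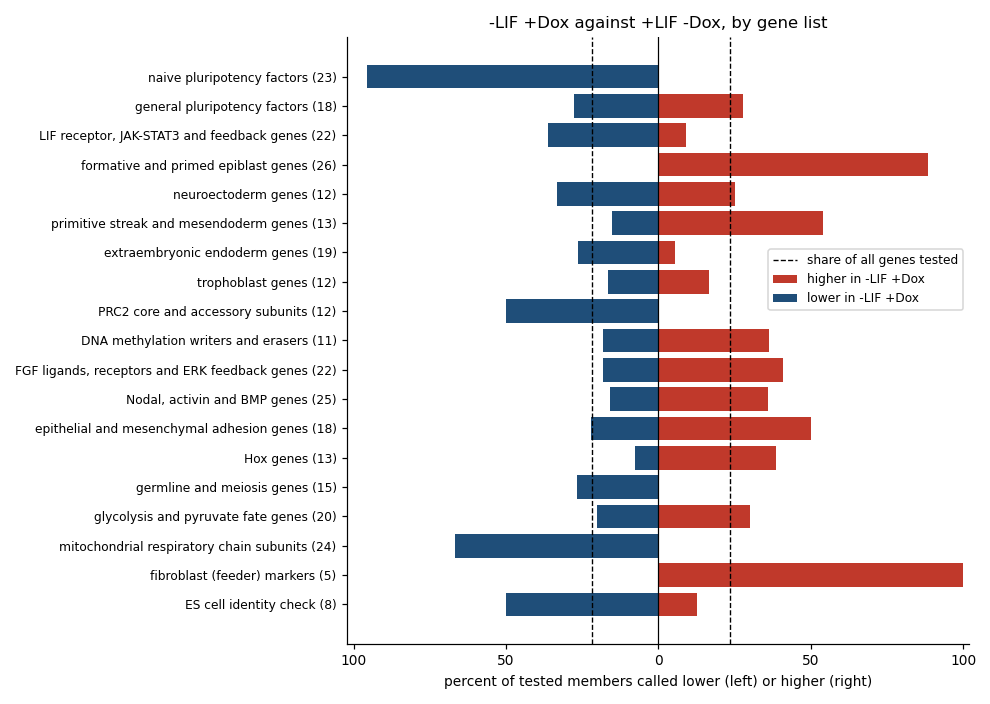
Percent of tested rows of each gene list (number in brackets) called higher (red, right) or lower (blue, left) in -LIF +Dox than in +LIF -Dox; dashed lines give the shares over all 15609 genes tested (23.6% and 21.7%). The naive factors lie almost wholly on the lower side, and the formative genes and the 5 fibroblast markers on the higher side.

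Apart from Fgf5, the largest increases of the gap lay outside these lists. Groups did not overlap for 7100 genes (45.5%). Where in addition the mean of the higher group reached 100, the 10 largest were Actc1, Fgf5, Psmb8, Slc35d3, Spon1, Kif1a, Zfp467, Astn1, Abcc8 and Col14a1. Actc1, cardiac actin, was listed at 1.34, 0 and 0 in +LIF -Dox and 125, 61.9, 146 and 86.8 in -LIF +Dox, with no fold given since no LIF library held more than 2 counts. Psmb8, an immunoproteasome subunit, stood at 8.72, 4.53 and 0 in +LIF -Dox, at 485, 302, 261 and 207 in -LIF +Dox and at 154, 151, 173 and 161 in -LIF -Dox, with a gap of 5.70 ± 0.46 (adjusted p = 3.5e-07). Kif1a, a neuronal kinesin, stood at 184, 81.0 and 162 against 5296, 2826, 4431 and 4057, with a gap of 4.92 ± 0.44 (adjusted p = 1.0e-06). Col14a1, a collagen chain, stood at 14.1, 19.8 and 9.26 against 573, 546, 176 and 146, higher in C1ON3 than in C2ON3 in the induced group. It was near LIF level without Dox (39.1, 39.6, 12.5 and 7.79), so that LIF withdrawal gave 0.63 ± 0.63 (adjusted p = 0.43) and Dox 3.85 ± 0.53 (adjusted p = 1.7e-04). The other 5 had gaps of 5.36 for Slc35d3, 5.03 for Spon1, 4.91 for Zfp467, 4.70 for Astn1 and 4.59 for Abcc8.

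The 10 largest decreases included Socs3, 2310043M15Rik, Gna14, Ak7, Gm17431, Napsa, Gm216, Bcl3 and 2410004A20Rik. Ak7, an adenylate kinase, stood at 852, 677 and 514 in +LIF -Dox and 13, 14.0, 22.8 and 19.7 in -LIF +Dox, far apart, with a gap of -5.29 ± 0.39 (adjusted p = 1.4e-07). Gna14, a G protein subunit, stood at 357, 293 and 37.0 against 3.73, 9.34, 3.81 and 4.60, where the C2ON3 library was the lowest of the LIF group (gap -5.48 ± 0.79, adjusted p = 7.2e-05). Gm17431 rested on 1 library, with 333, 341 and 15790.2 in +LIF -Dox and 319, 165, 20.3 and 49.3 in -LIF +Dox. Its gap of -5.27 ± 1.28 (adjusted p = 0.0037) became -1.29 (adjusted p = 0.26) without the C2ON3 library in LIF. The gaps of the other genes named were -5.61 for 2310043M15Rik, -4.82 for the aspartic protease gene Napsa, -4.79 for Gm216 and -4.50 for 2410004A20Rik.

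Dox without LIF changed some of these genes strongly. The 5 largest increases were Col14a1, Itga1, Gm7325, Pla2g4e and Nanog. Itga1, an integrin subunit, stood at 16.8, 21.0 and 18.5 in +LIF -Dox, 40.8, 44.9, 12.5 and 14.5 in -LIF -Dox and 292, 510.2, 170.0 and 156 in -LIF +Dox, so that the induced cells lay above both, with a Dox effect of 3.33 ± 0.55 (adjusted p = 8.1e-04) and a gap of 3.89 ± 0.67 (adjusted p = 3.0e-04). Pla2g4e, a phospholipase, returned to the range of LIF cells, with 130.1, 112 and 64.8 in +LIF -Dox, 12.0, 14.5, 10.8 and 8.90 in -LIF -Dox and 82.9, 162, 105 and 83.5 in -LIF +Dox. Its Dox effect was 3.25 ± 0.36 (adjusted p = 3.1e-05) and its gap 0.02 ± 0.34 (adjusted p = 0.97). Gm7325 rose by 3.31 ± 0.30 (adjusted p = 5.8e-06) and remained below LIF cells, with a gap of -2.92 ± 0.26 (adjusted p = 8.8e-07). The 5 largest decreases were Irx5, Fst, Sema6a, Prickle1 and Kctd12b. Fst, the activin inhibitor follistatin, stood at 57.7, 48.2 and 41.7 in +LIF -Dox, 395, 343, 256 and 213 in -LIF -Dox and 53.1, 57.2, 72.3 and 92.1 in -LIF +Dox. Its Dox effect was -2.09 ± 0.24 (adjusted p = 3.7e-05) and its gap 0.45 ± 0.27 (adjusted p = 0.20), and the LIF and induced libraries overlapped. Irx5, Prickle1 and Kctd12b had Dox effects of -2.21 ± 0.49, -2.0 ± 0.31 and -1.85 ± 0.50 (adjusted p = 0.0061, 5.4e-04 and 0.019). The call for Kctd12b was lost without the -LIF -Dox library of C1ON3 replicate 1 (adjusted p = 0.059) or the -LIF +Dox library of C2ON3 replicate 2 (adjusted p = 0.054).

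The gap was finally set against that of the Nanog SunTag cells, where the same media were compared in 6 libraries without an Otx2 guide. There 4386 of 15624 genes (28.1%) were called. The test of the difference between the 2 gaps, in a fit over all SunTag libraries, called 1161 of 16210 genes (7.16%), with 356 higher (2.2%) and 805 lower (4.97%) in the Nanog/Otx2 cells. This count was unstable, at 1930 with the replicate block and 448 (without the +LIF -Dox library of C1ON3 replicate 2) to 3980 (without the Nanog cell +LIF -Dox library of C1) when libraries were left out in turn. Guide set, clones and the prefix of the library names differ together between these cells and cannot be told apart. Within the Nanog cells, the library names also carry different letters with and without LIF. What the prefixes and letters stand for is not stated, and their part in the gap difference was not tested. The gap of Otx2 was larger in the Nanog/Otx2 cells by 1.19 ± 0.26 (adjusted p = 0.0084), while that of Nanog differed by -0.09 ± 0.51 (adjusted p = 0.94).

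Among pluripotency and LIF pathway genes, the gaps of the dioxygenase Tet1 and of the receptor subunit Il6st were lower in the Nanog/Otx2 cells, with differences of -1.62 ± 0.31 and -0.97 ± 0.20 (adjusted p = 0.0035 and 0.0071). In the Nanog cells these genes had gaps of 0.16 and 0.42, not called. The gap of the feedback inhibitor Socs1 was higher, with a difference of 2.31 ± 0.50 (adjusted p = 0.0088, or 0.056 over the libraries of these 4 groups alone). Klf5 and Tet2 differed by -0.91 ± 0.25 and -1.31 ± 0.35 (adjusted p = 0.028 and 0.024). Both calls were lost without the +LIF -Dox library of C1ON3 replicate 2 (adjusted p = 0.066 and 0.078), the -LIF +Dox library of C1ON3 replicate 1 (0.055 and 0.051), the Nanog cell +LIF -Dox library of C2 replicate 2 (0.089 and 0.090) or the first of the Nanog cell -LIF +Dox libraries of C1 (0.082 and 0.070). For Tet2 the Nanog cell +LIF -Dox library of C2 replicate 1 (0.082) and the other -LIF +Dox library of C1 (0.058) did the same. For Esrrb, Klf4 and Socs3 the differences were -0.33 ± 0.19, 0.21 ± 0.33 and 0.44 ± 0.47, none of them called (adjusted p = 0.30, 0.74 and 0.61), and Tfcp2l1, at -0.53 ± 0.39 (adjusted p = 0.44), was called with the replicate block (-0.76, adjusted p = 0.034).

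Of the 23 naive rows, 3 were called lower in this difference and none higher, against 4.97% and 2.2% of all genes. Klf5 and Tet2, whose calls depended on single libraries, were among the 3. Of the 26 formative rows 1 was called higher, Otx2, itself a target of the guides. The 5 largest differences in each direction were Gm7336, Gm15428, Gm4459, Ap3s1-ps1 and Gm3724, all higher, and Gm10053, Gm9817, Gm2058, Rbpsuh-rs3 and Pax6, all lower. Apart from Pax6 their names are those of predicted genes and pseudogenes, whose reads could be shared with near-identical copies, so their values are uncertain. No Nanog cell library in -LIF +Dox held more than 3 counts of Gm7336 or Gm15428, and none in +LIF -Dox of Gm2058, so no size is given for these genes. Gm9817 was not called with the replicate block (-3.16, adjusted p = 0.17) or without the +LIF -Dox library of C2ON3 (-1.32, adjusted p = 0.29), and its call was lost without each of 9 of the 13 libraries compared in turn. Pax6, a neuroectoderm factor, had a gap of -0.36 ± 0.45 in the Nanog/Otx2 cells and 2.76 in the Nanog cells, a difference of -3.19 ± 0.95 (adjusted p = 0.042), and its call was lost without each of 10 of the 13 libraries compared in turn, with adjusted p-values of up to 0.14.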

How the data were processed

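RNA was prepared on day 3 from the SunTag cells in media with and without LIF and Dox. Per the labels and the methods, polyA libraries were stranded and read as single ends. The authors processed reads with CASAVA 1.8, aligned them with STAR to mm9 and deposited expected counts per gene from RSEM, which are whole numbers in the table, and a second table of counts divided by DESeq2 size factors, a normalised signal. Normalised counts are from that deposited table. No per-sample column was left unmapped. Which version of STAR or RSEM was used is not given in the sources used here.

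A gene was tested where all libraries of some condition reached 10 normalised counts. The expected counts were fitted with edgeR 4.0.16 in R 4.3.3 (TMM normalisation, quasi-likelihood test, Benjamini-Hochberg adjustment, threshold 0.05) over the 15 Nanog/Otx2 libraries as 4 groups. The gap difference was fitted over all Nanog/Otx2 and Nanog SunTag libraries. Alternatives used DESeq2 1.42.0, other scaling and filters, a replicate block, clone, fewer libraries and, chosen after seeing the data, a block on column numbers and offsets for length and GC content. No fold is given where no library of a group held more than 3 counts. Scripts were tested on simulated data.

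The labels number replicates within each clone. Deviations of libraries of the same clone and number from their group means had correlations of at least 0.143 (mean 0.318 over 21 pairs). The mean was 0.244 over 42 pairs of the same clone and any number, and -0.245 over 42 pairs of different clones. With the numbers in the column names it was 0.325 over 21 pairs. These values do not settle which numbers pair the libraries. Blocks on each numbering were run as alternatives, and the main test has no pairing. Pairs of libraries within a group differed by far more than sampling noise, so none was counted as a duplicate. Nothing says that replicates of a clone were separate cultures, so p-values measure the spread between these libraries, which may be technical.

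Gene lists, members and tests were chosen with earlier results of these data known. The text names Nanog, Otx2 and a fixed list of pluripotency, formative and LIF genes. It also names the 10 largest changes of the gap and the 5 largest of the other comparisons in each direction. These needed a mean of at least 100 in the higher group and, except for the gap difference, no overlap. From each gene list it names members among the 6 with the smallest adjusted p or abundant and not called. Cdh1, Cldn3, Cldn7, Gata6, Id3, Il6st, Junb, Nr5a2, Ptpn11 and Socs1 were chosen after their values were seen. One gene that the rule names is not reported here. No sequence or chromatin sample was used.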

Additional observations from a re-analysis of the deposited data

Results flagged for a closer look

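In the -LIF +Dox group of 4 libraries, 1 library lay far from the others (its distance to the nearest other library, divided by the range of the group, exceeded Dixon's 95% critical value) in 11 of 127 gene rows examined, where chance gives about 1 in 20. The ratio was 0.844 for Klf5 (1409.6 normalised counts in C1ON3 replicate 1 against 2040.0 to 2156), 0.831 for Nr0b1 (1255 in C1ON3 replicate 2 against 861 to 927), 0.849 for Cdh1, 0.877 for Ocln and 0.862 for Krt8 (all highest in C1ON3 replicate 1), and 0.932 for Ezh2 (3686 in C1ON3 replicate 1 against 3572 to 3580.2). It was 0.942 for Pim1 (lowest in C1ON3 replicate 2), 0.886 for Sox21 (highest in C1ON3 replicate 2) and 0.959 for Hoxc13 (29.2 in C2ON3 replicate 1 against 38.1 to 38.5). The low genes 2310043M15Rik and Gna14 had ratios of 0.919 and 0.844. For these 11 genes the gap was called and the groups did not overlap.

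The gap differed between the Nanog/Otx2 and the Nanog cells, by a test of the difference itself, for 18 of the genes named with more than 3 counts in some library of each group. The log2 difference was 1.19 for Otx2, -0.91 for Klf5, -1.31 for Tet2, -1.62 for Tet1, -0.97 for Il6st and 2.31 for Socs1. It was -1.10 for Acvr2b (gaps of 0.75 and 1.81), -1.37 for Tead4 (-1.91 and -0.59), 1.17 for Pfkm (1.15 and -0.07), 2.66 for Col1a1 (1.98 and -0.72), -1.66 for Pla2g4e (0.02 and 1.63) and -3.19 for Pax6. Among the predicted genes and pseudogenes it was 5.35 for Gm4459, 3.90 for Ap3s1-ps1, 3.64 for Gm3724, -7.35 for Gm10053, -4.53 for Gm9817 and -3.49 for Rbpsuh-rs3. With 1 of 13 libraries left out at a time, the call was lost in 10 cases for Pax6, in 9 each for Gm9817 and Pfkm, in 8 each for Acvr2b and Pla2g4e, in 6 each for Col1a1 and Tet2, in 4 for Klf5, in 3 for Ap3s1-ps1, in 2 for Gm10053 and in 1 for Gm3724, and in none for the other 7.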

How the results depend on the processing

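The gap kept its count within 1.5 times of 7072 in the alternatives run (5781 to 7004 with 1 library left out) except within C2ON3 alone (4549), where LIF cells are 1 library assumed to vary like the other groups. LIF withdrawal gave 6658 to 7577 with 1 library left out and 9642 with the replicate block. The Dox effect gave 1757 to 2622 with 1 library left out, 5215 with the replicate block, 5398 with the block on column numbers and 4690 with clone as a covariate. The gap difference gave 1748 with DESeq2, 1930 with the replicate block, 276 over the libraries of the 4 groups alone and 448 to 3980 with 1 library left out, the lowest without the +LIF -Dox library of C1ON3 replicate 2 and the highest without the Nanog cell +LIF -Dox library of C1 (689 and 624 without either -LIF +Dox library of C1 of the Nanog cells). Its share of higher genes was 30.7%, and 42.7% with DESeq2. Without a fold threshold the LIF-responsive list held 6481 genes, with median gaps of -0.53 and 0.68.

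The sign turned for genes that were not called. Id1 had a gap of -0.0034 with the replicate block, -0.029 with clone as a covariate, -0.13 within C1ON3 and -0.072 to 0.37 with 1 library left out. Suz12 had 0.016 with no filter, 0.014 over the 2 groups alone, 0.17 within C2ON3, 0.0021 with length and GC offsets and -0.079 to 0.036 with 1 library left out. Jak1 had -0.11 and Pla2g4e -0.18 with the offsets, and -0.034 to 0.063 and -0.24 to 0.23 with 1 library left out. With the offsets Dnmt1 had -0.21 (adjusted p = 0.025). Within C2ON3, Dnmt3l had 0.064, Mycn 0.070 and Pax6 1.08 (adjusted p = 0.033), and within C1ON3 the Dox effect of Bcl3 was -0.058. The gap difference of Nanog was 0.23 with the replicate block and -0.23 to 0.036 with 1 library left out. The cause was not tested.

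Of 2121 values of 118 named genes in the gap under the alternatives, 2057 kept direction and side of the threshold, as did 349 of 360 for the Dox effect and 331 of 414 for the gap difference. Germline genes called were 7 within C1ON3 and 8 with the offsets, extraembryonic endoderm genes 10 with clone as a covariate, and respiratory genes 10 within C2ON3. The replicate block changed no call of a named gene beyond those given with it. The number of called list members did change with it. It went from 10 to 15 for the LIF pathway, 6 to 9 for PRC2, 16 to 21 for respiratory and 10 to 14 for glycolysis genes. Hox genes went from 6 to 8 and neuroectoderm genes from 7 to 6, and most other lists also gained called members.

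The shallow +LIF -Dox library of C2ON3, with 6107512 counts, limits what can be said of low genes in LIF cells. Both factors were induced together with Dox, which cannot be told apart from them.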
